A study of Rattus norvegicus with 2 samples.

Results

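Elastin circRNA was examined through the back-splice junctions that the deposited table assigns to the rat host gene Eln, 21 of the 4734 junctions listed. A junction was taken when the comma-separated host names of its row include Eln. The gene was chosen by its values, since the Sham and LPS levels of its junctions were known when it was selected, so every difference between Sham and LPS given for Eln is a description without a test. All 21 junctions carry Eln as their single host name.

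Elastin is the core protein of elastic fibres. Its soluble precursor, tropoelastin, is secreted mainly by fibroblasts and smooth muscle cells, is laid down on microfibrils rich in fibrillin and is crosslinked by enzymes of the lysyl oxidase family, and the resulting fibres give the lung its elastic recoil. The transcript is built from many small exons that code for alternating hydrophobic and crosslinking segments and that keep the reading frame when one is skipped. A circRNA forms when the splicing machinery joins the end of an exon back to the start of the same or an upstream exon, and the read that crosses this joint gives the position of the junction.

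The lung tissue came from SD rats given PBS (Sham) or LPS, a component of the outer membrane of Gram-negative bacteria, at 2 mg/kg by intratracheal spray, and was taken at 24 h. The study used 12 rats, whose age is not given in the sources used here, and 1 circRNA library stands for each group, with no statement on whether RNA of several rats was pooled. The sample labels describe ribosomal RNA removal, RNase R treatment against linear RNA and a strand-marked library, whereas the study's methods name the SmartPCR cDNA kit followed by digestion with RsaI. With 1 library per group there is no replicate error, and the LPS treatment cannot be told apart from any other difference between the libraries.

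The values were deposited under the heading TPM but behave as junction reads scaled to a common library total (CPM), because both columns sum to the same total and rise in steps of a fixed size. A single read was worth 26.2 CPM for Sham and 19.0 CPM for LPS, which gives depths of 38112 and 52505 junction reads. Dividing by the step gave a whole number, within 0.1 reads, for 100% of the listed values. The lowest listed value was 2 reads, so the fill-in of 0.001 was taken to stand for 0 or 1 read. This is an assumption, because the circRNA caller is not given in the sources used here, and every bound or hidden read below rests on it. At the one-sided 95% Poisson limit for 1 read, the fill-in allows up to 4.74 reads, or 124 CPM in Sham and 90.4 CPM in LPS. Ratios on the log2 scale are LPS over Sham with 0.5 reads added, and a junction counts as lower or higher from a fold of 2. Intervals are 95% Wilson intervals for levels and exact binomial intervals for ratios, and they hold for counting error alone, as amplified reads lacking molecular identifiers do not each stand for a molecule.

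Every Eln junction was listed in the Sham library, and 7 of the 21 were listed in the LPS library. The other 14 were at the LPS fill-in, and none was listed in LPS alone. Of all junctions, 32.4% were listed in Sham only and 30.5% in LPS only, figures that stand beside the Eln counts without being read against them. By fold, 15 Eln junctions were lower in LPS, 1 was higher and 5 lay within 2-fold, while 43.3% of all junctions were lower and 35.7% were higher. Of the 15, 14 passed through the fill-in taken as 0 reads. With the fill-in at its limit, a setting added after the values were seen, 7 Eln junctions were at least 2-fold lower, 6 of them at the fill-in, beside 14.9% of all junctions. The median log2 ratio of the Eln junctions was -3.27, against -0.46 for all junctions, and with the fill-in at its limit the medians were -0.80 and 0.

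Summed over the 21 junctions, Eln had 331 Sham reads, 8685 CPM (7802 to 9667), and 206 LPS reads, 3923 CPM (3424 to 4496). Its share of all junction reads was thus 0.868% in Sham and 0.392% in LPS. The summed level was 2.21-fold lower in LPS (1.85 to 2.65), or 2.07-fold lower if each of the 14 fill-ins hid 1 read. In bulk lung, fewer elastin-making cells and less Eln circRNA per cell cannot be told apart, and linear Eln RNA was not analysed here. The size of the difference in summed level moved with the scale. The log2 ratio of the sum was -1.15 on the CPM scale, -0.68 relative to the median of the 1757 junctions shared by both libraries (-0.46) and -1.59 relative to the median of the 323 shared junctions with at least 50 reads over both (0.44), so that relative to the shared junctions the sum was less than 2-fold lower.

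**Figure D1:**
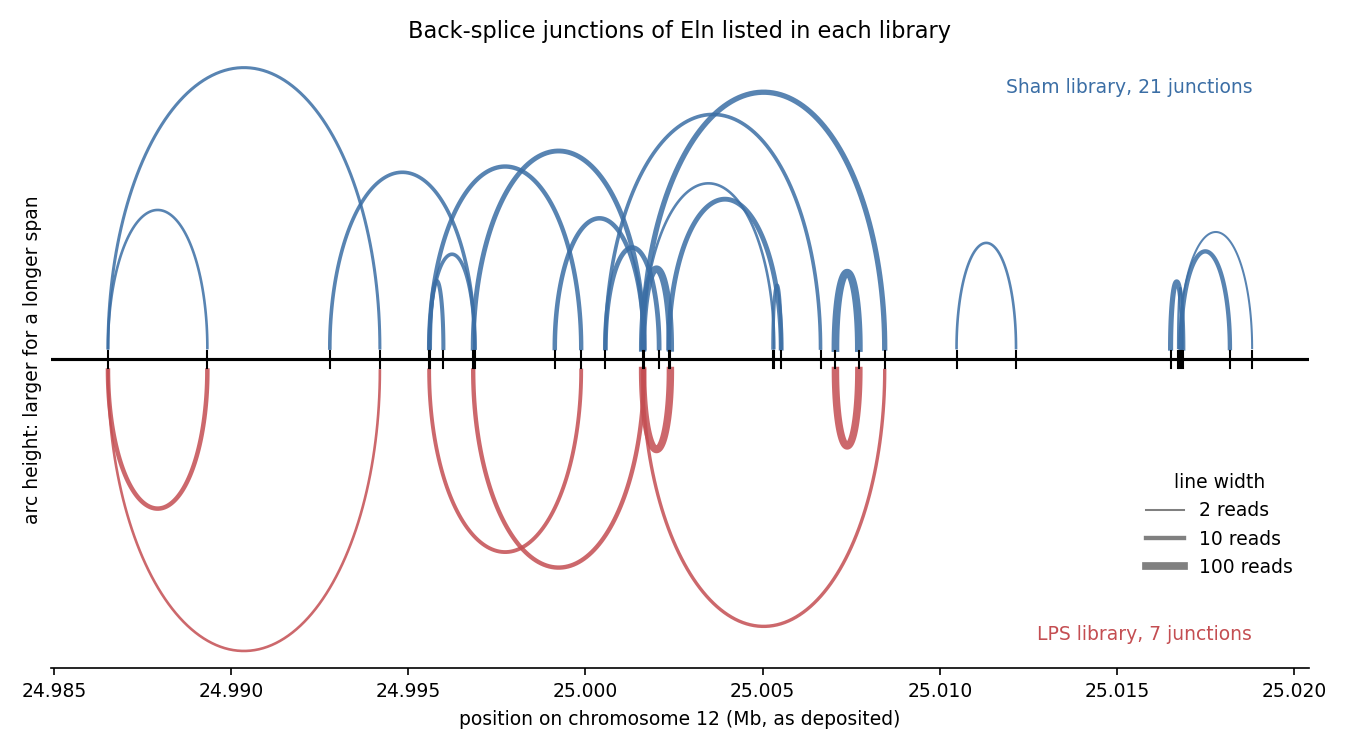
Map of the Eln back-splice junctions along chromosome 12 in Mb, with the Sham library above the line in blue and the LPS library below it in red. Each arc joins the start and end of a junction, is higher for a longer span and is wider for more reads, and ticks mark all starts and ends. The Sham side holds 21 arcs and the LPS side 7, all of the latter between 24986530 and 25008446.

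The junctions lie on chromosome 12 between 24986530 and 25018813, an extent of 32284 nt in the coordinates as deposited, for which the submitters' processing notes list the build rn6. The table gives no strand and no exons, so a start here is the lower coordinate and an end the higher, and exons were not assigned. No junction of another host lies inside this extent. The nearest on either side are a junction of Wbscr22, which encodes a methyltransferase of ribosomal RNA, 311380 nt below (7 Sham and 3 LPS reads), and one of Clip2, which encodes a microtubule-binding linker protein, 188470 nt above (7 Sham reads and the LPS fill-in). The Eln junctions therefore stand alone in this stretch of the chromosome.

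Spans ran from 138 to 7673 nt with a median of 2052 nt, compared with 4394 nt for all junctions of the table, and 4 of the 21 were at most 500 nt. These are genomic distances, and the length of the circles after removal of introns was not analysed here. The 21 junctions use 16 starts and 17 ends. A total of 4 starts were used more than once, 3 of them by 2 junctions and 1 by 3, and 4 ends were each used by 2 junctions. Thus 16 junctions shared a start or an end with another, and 5 shared neither.

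Overlapping junctions formed 3 blocks. The first, from 24986530 to 25008446, held 16 junctions over 21917 nt, with 297 Sham reads (7793 CPM) and 206 LPS reads (3923 CPM). It contained all 7 junctions listed in LPS and was 1.99-fold lower there (1.66 to 2.38). The second was a single junction from 25010473 to 25012151 with 3 Sham reads. The third, from 25016512 to 25018813, held 4 junctions over 2302 nt, with 31 Sham reads (813 CPM). Beyond the first block, then, 5 junctions with 34 Sham reads (892 CPM) were all at the LPS fill-in, where at 1 hidden read each they could hold 5 reads, or 95.2 CPM. The densest point was from 25001615 to 25001656, which 7 junctions covered at once.

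The most-read Eln junction in both libraries ran from 25007056 to 25007716, a span of 661 nt that shares neither of its positions with another junction. It had 101 Sham reads, 2650 CPM (2182 to 3219), and 86 LPS reads, 1638 CPM (1327 to 2022). The LPS level was 1.62-fold lower (1.20 to 2.18), within the 2-fold limit and with no overlap of the counting intervals. Both statements depend on the scale, since its log2 ratio of -0.69 became -0.23 relative to the shared junctions and -1.14 relative to those with at least 50 reads. Next came the junction from 25001615 to 25002399, 785 nt long, with 74 Sham reads, 1942 CPM (1547 to 2437), and 84 LPS reads, 1600 CPM (1293 to 1980). Its level was 1.21-fold lower in LPS (0.876 to 1.68), a difference not detectable at this depth in CPM, and its log2 ratio of -0.28 became 0.18 relative to the shared junctions and -0.73 relative to those with at least 50 reads.

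These 2 junctions, chosen after their reads were seen, held 52.9% of the Eln reads in Sham (47.5 to 58.2) and 82.5% in LPS (76.8 to 87.1). Together they had 175 Sham reads (4592 CPM) and 170 LPS reads (3238 CPM), a 1.42-fold lower level (1.14 to 1.76). The other 19 had 156 Sham reads (4093 CPM) and 36 LPS reads (686 CPM), a 5.97-fold lower level (4.13 to 8.83), or 4.30-fold if every fill-in hid 1 read. Most of the Eln difference between the libraries in CPM thus lay in the junctions with fewer reads. Because this division follows the reads themselves, it describes how the Eln reads were spread and supports nothing further.

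**Figure D2:**
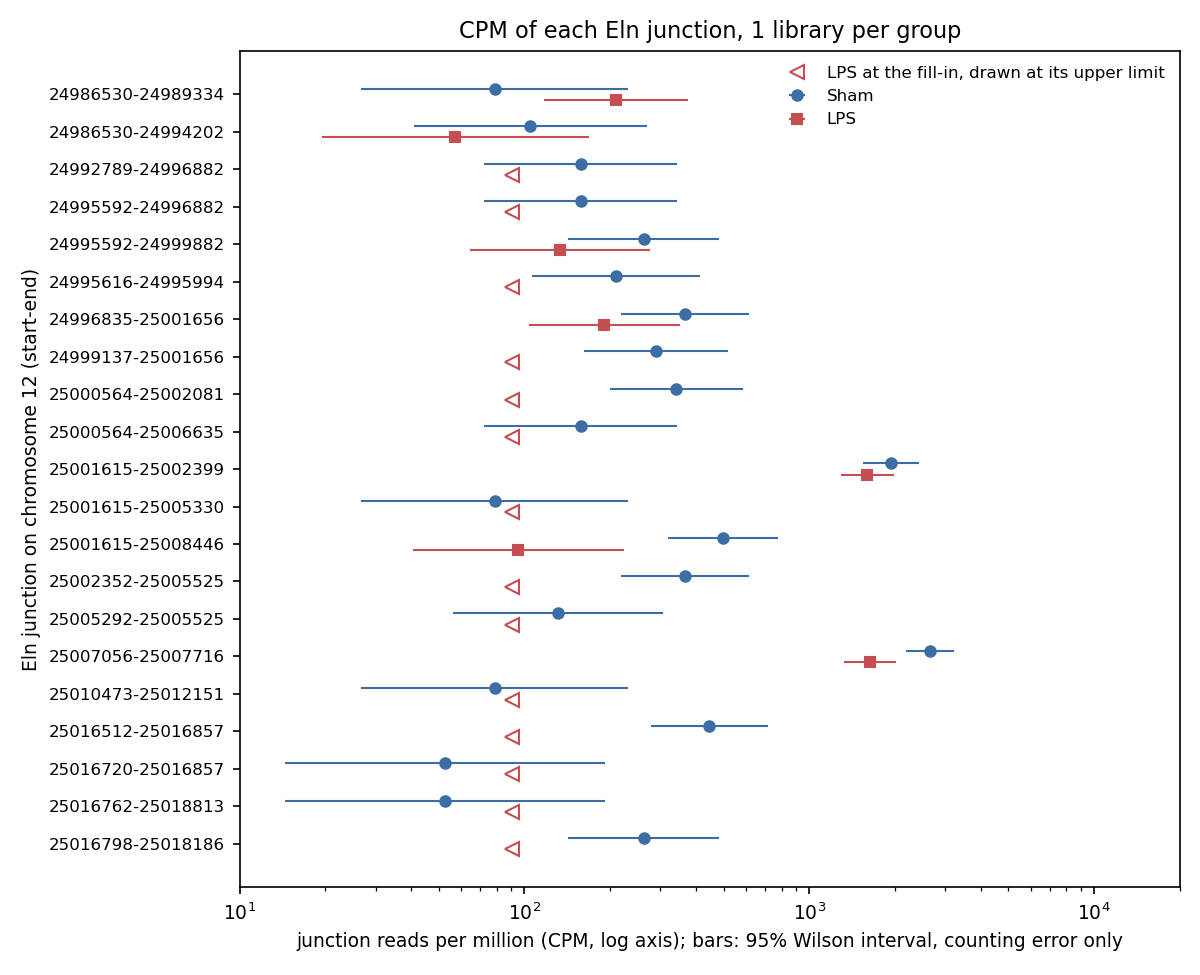
Level of each Eln junction in CPM on a log axis, ordered by position on chromosome 12, with the Sham library as blue circles and the LPS library as red squares. Bars are 95% Wilson intervals for counting error, and open triangles mark the 14 junctions at the LPS fill-in, drawn at the upper limit of 90.4 CPM. The junctions 25007056 to 25007716 and 25001615 to 25002399 lie at 1600 CPM or above in both libraries and all others at 499 CPM or below.

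A further 5 junctions had reads in both libraries. The junction from 25001615 to 25008446, 6832 nt long, had 19 Sham reads, 499 CPM (319 to 779), and 5 LPS reads, 95.2 CPM (40.7 to 223). It was 5.24-fold lower in LPS (1.89 to 17.9) and, at a log2 ratio of -2.29, is the only one of the 15 lower junctions with reads in both libraries and the nearest of them to the 2-fold limit with 0.5 reads added. With the fill-in as 1 read, the 4 junctions with 2 or 3 Sham reads lie nearer, from -1.68 to -1.20. The junction from 24995592 to 24999882, with 10 Sham reads, 262 CPM (143 to 483), and 7 LPS reads, 133 CPM (64.6 to 275), fell just short of that limit at 1.97-fold lower (0.676 to 6.09). Close to it, the junction from 24996835 to 25001656 had 14 Sham reads, 367 CPM (219 to 617), and 10 LPS reads, 190 CPM (104 to 351), a 1.93-fold lower level (0.797 to 4.85). For the last 2 the intervals of the ratio include equal levels, so no difference was detectable at this depth.

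The lowest start, 24986530, was the only one of the shared positions with more LPS than Sham reads. The junction from there to 24989334, 2805 nt long, had 3 Sham reads, 78.7 CPM (26.8 to 231), and 11 LPS reads, 210 CPM (117 to 375). It was the Eln junction with a higher LPS level past 2-fold, 2.66-fold (0.703 to 14.9), an interval that includes equal levels. From the same start, the junction to 24994202 has the longest span of all, 7673 nt, and had 4 Sham reads, 105 CPM (40.8 to 270), and 3 LPS reads, 57.1 CPM (19.4 to 168). Its level was 1.84-fold lower (0.311 to 12.5), likewise not detectable as a difference. Reads from this start summed to 7 in Sham and 14 in LPS.

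The 14 junctions at the LPS fill-in held 106 Sham reads, 32.0% of the Eln reads of that library. They ranged from 2 to 17 Sham reads with a median of 6, where the junctions listed in Sham only had a median of 3 over the whole table. For 10 of them the Sham value lay above what the LPS fill-in allows, and for the other 4, with 2 or 3 reads, it did not, so a difference was not detectable at this depth.

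The best-read of the 14, from 25016512 to 25016857 with a span of 346 nt, had 17 Sham reads, 446 CPM (279 to 714), and was at least 4.94-fold lower in LPS, where such a bound sets the Sham value as measured against the limit of the LPS fill-in. The junction from 25002352 to 25005525 (3174 nt) followed with 14 reads, 367 CPM (219 to 617), at least 4.07-fold lower. Neither shares its start with another junction, and each shares its end with a shorter one. The junction from 25000564 to 25002081 (1518 nt) had 13 reads, 341 CPM (199 to 584), and was at least 3.78-fold lower. The junction from 24999137 to 25001656 (2520 nt) had 11 reads, 289 CPM (161 to 517), and was at least 3.19-fold lower, and that from 25016798 to 25018186 (1389 nt) had 10 reads, 262 CPM (143 to 483), and was at least 2.90-fold lower. These 5 start between 24999137 and 25016798, and their Sham intervals lie wholly above the limit of the LPS library and overlap each other, so no order among them can be given.

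Of the 10 Eln junctions with at least 10 Sham reads, 5 were thus at the LPS fill-in (50%), beside 8.82% of the 839 such junctions in the table. Among the 11 Eln junctions with at least 10 reads over both libraries, 6 were lower and 1 was higher in LPS, beside 29.6% lower and 29.1% higher of the 1580 junctions that met the same minimum. The first minimum is set on Sham reads, so every junction entered through the library in which the Eln sum was higher. In the second count, 5 of the 6 lower junctions met the minimum through their Sham reads alone and so had to be lower in LPS. Neither count is therefore support for a difference from the other junctions.

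The remaining 9 junctions at the LPS fill-in had 2 to 8 Sham reads. The junction from 24995616 to 24995994 (379 nt) had 8 reads, 210 CPM (106 to 414), and was at least 2.32-fold lower in LPS. At 6 reads each, 157 CPM (72.2 to 344), stood the junctions from 24992789 to 24996882, from 24995592 to 24996882 and from 25000564 to 25006635, with spans of 4094, 1291 and 6072 nt. The short junction from 25005292 to 25005525 (234 nt) had 5 reads, 131 CPM (56.0 to 307). For the last 4 of these 5 the Sham interval reaches below the limit of the LPS library, so no fold is given for them. The junctions from 25001615 to 25005330 (3716 nt) and from 25010473 to 25012151 (1679 nt) had 3 Sham reads each, 78.7 CPM. The junctions from 25016720 to 25016857, the shortest of all at 138 nt, and from 25016762 to 25018813 (2052 nt) had 2 each, 52.5 CPM, and for these 4 no fold can be given.

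In the order of Sham levels, the 2 most-read junctions overlapped in their intervals and stood clear of the rest, since the lower bound of the second, 1547 CPM, exceeded the upper bound of the next, 779 CPM. From that junction downward each interval overlapped that of its neighbour. In the LPS library the same pair again overlapped each other and stood clear of the other 5, of which the highest reached 375 CPM. Below the pair, then, neighbours in the order were not resolved from each other in either library, although in Sham the intervals of the junctions with 19 and 17 reads lay wholly above those with 2 or 3 reads.

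How evenly the junctions divided the reads differed between the shared positions. In Sham, end 24996882 was split evenly, with 50% for each of its 2 junctions (25.4 to 74.6). At starts 24986530, 24995592 and 25000564 and at end 25001656, the Sham interval of the larger share also included 50%. Start 25001615, used by 3 junctions, had 96 Sham reads and 89 LPS reads. The junction that ends at 25002399 took 77.1% of them in Sham (67.7 to 84.4) and 94.4% in LPS (87.5 to 97.6), so the junctions of longer genomic span from this start made up the smaller share in either library. Start 24995592 had 16 Sham and 7 LPS reads, all of the latter from the junction to 24999882. End 25001656 had 25 Sham and 10 LPS reads, the latter all from the junction that starts at 24996835. Start 25000564 and ends 25005525 and 25016857 each had 19 Sham reads, end 24996882 had 12, and none of these 4 positions had reads listed in LPS. Where a position was shared and still read in LPS, at most 2 of its junctions remained listed there.

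Within the extent, the distance from a start to the next end above it, with both bases counted, gives the shortest stretch bounded by a start and an end. A total of 7 such stretches were at most 300 nt, a limit chosen after the values were seen, and all 7 were whole numbers of codons. They were 48 nt from 24996835, 42 nt from 25001615, 48 nt from 25002352 and 39 nt from 25005292, or 16, 14, 16 and 13 codons. A further 3 run to the shared end 25016857, with 138, 96 and 60 nt from 25016720, 25016762 and 25016798, or 46, 32 and 20 codons, so that the 7 have 5 distinct ends and are not separate observations. Among all junctions without Eln as host, 41.4% of 514 such stretches were whole codons, with a median length of 165 nt against 48 nt in Eln. There the next end on the chromosome was taken whatever its host. Of the 9 longer Eln stretches, 1 was a whole number of codons. The shortest of the longer ones, at 346, 379 and 403 nt, were not, so the count of 7 of 7 depends on the chosen limit.

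Of the other Eln positions that lie at most 300 nt apart, starts 24995592 and 24995616 are separated by 24 nt (8 codons) and ends 25005330 and 25005525 by 195 nt (65 codons). Starts 25016512 and 25016720, by contrast, lie 208 nt apart, which is not a whole number of codons. Whether these stretches are exons was not tested, as no annotation of this build was used here.

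Eln had the most junctions of the 2318 hosts named alone in a row, where the median was 1 junction per host. The next were Crim1, which encodes a transmembrane protein that binds bone morphogenetic proteins, and Prex2, which encodes an exchange factor for Rac, with 15 each. They were followed by Gtf2i, which encodes a general transcription factor, with 14, and by Arhgap10 and Rere, a nuclear receptor coregulator, with 10 each. In the Sham library Eln also led by listed junctions and was 8 in rank by reads, while in the LPS library it shared rank 7 by listed junctions with other hosts, 6 in all, and was 31 in rank by reads. Among the other 5 hosts, 64.3% to 80% of junctions were listed in LPS, compared with 33.3% for Eln. A share this low was not particular to Eln, as shown by Ltbp1 and Col3a1, hosts of the extracellular matrix described further on. Over all rows that name them, they had 2 of 6 and 1 of 9 junctions listed in LPS. The Ltbp1 count includes 1 junction with 10 host names at the LPS fill-in, without which its share would lie above that of Eln.

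The reads of those hosts did not move in a single direction. Crim1 had 263 Sham and 482 LPS reads (log2 ratio 0.41), Gtf2i 680 and 930 (-0.01) and Arhgap10 203 and 315 (0.17). Prex2 had 181 and 62 (-2.00) and Rere 77 and 67 (-0.66). Prex2 was thus lower in summed reads than Eln by ratio, yet 12 of its 15 junctions were listed in LPS.

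The 5 hosts nearest to Eln in summed log2 ratio, out of 83 others with at least 5 junctions and 50 reads, were compared over 2 libraries only. They were Specc1l, which encodes a protein that links microtubules and actin (-1.15, 68 Sham and 42 LPS reads), Gigyf2, a translational repressor (-1.12, 2438 and 1544), Mkln1, a member of a ubiquitin ligase complex (-1.09, 125 and 81), Atrnl1 (-1.08, 48 and 31) and Sptan1, a spectrin of the membrane skeleton (-1.27, 39 and 22). At a like ratio these hosts had most of their junctions listed in LPS, from 4 of 6 in Atrnl1 and Sptan1 to 7 of 8 in Gigyf2. In Eln the like ratio came with 7 of 21, a share that, as stated, hosts with other ratios had too.

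Of 27 other elastic fibre genes, 5 had a junction in the table, and the fibrillin gene Fbn1, the fibre assembly gene Fbln5 and the crosslinking genes Lox and Loxl1 were among the 22 without one. By host, 1 of the 5 was lower in LPS and 3 were higher, beside 38.0% lower and 31.1% higher among all 2502 hosts, and with the fill-in at its limit 0 were lower and 1 was higher. Ltbp4, which encodes a binding protein of latent TGF-beta needed for elastic fibre assembly, was listed with 4 reads in Sham and stood at the fill-in in LPS. The lysyl oxidase gene Loxl2 had 21 LPS reads (400 CPM), the small proteoglycan gene Bgn 3 and the fibre-associated glycoprotein gene Emilin2 2, all at the Sham fill-in. Ltbp1, another latent TGF-beta binding protein gene, had 18 Sham and 39 LPS reads (log2 ratio 0.63), of which 36 LPS reads came from the junction at 21334766 to 21354603 on chromosome 6 and the other 5 junctions had 18 Sham and 3 LPS reads. Together these 5 hosts had 22 Sham reads (577 CPM) and 65 LPS reads (1238 CPM). Their median log2 ratio of 1.86, against -0.32 over all hosts, is that of Emilin2 and rests on the 0.5 reads added, and with the fill-in at its limit both medians were 0. Without that Ltbp1 junction, the other elastic fibre hosts had 22 Sham reads (577 CPM) and 29 LPS reads (552 CPM), so their higher LPS sum rests on 1 junction and gives no direction to set beside that of Eln.

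Fibrillar collagen genes, which encode the tensile fibres laid down beside elastin, were present with 3 of 7 hosts. Col3a1 had 70 Sham reads (1837 CPM) over 9 junctions and 2 LPS reads (38.1 CPM), a 48.2-fold lower level (12.9 to 406), or 9.64-fold if each of the 8 junctions at the LPS fill-in hid 1 read. Of these 8, 6 had Sham values above the 90.4 CPM that the fill-in allows and 2 did not. Col5a2 had 11 Sham and 31 LPS reads, and Col5a1 had 2 LPS reads at the Sham fill-in. Eln thus had a matrix host beside it with a larger drop in CPM ratio and others with more LPS than Sham reads. None of the 16 elastin-degrading enzymes and their inhibitors had a junction, and of 7 genes for elastin receptors and integrins Itgb5 alone did, with 9 Sham and 6 LPS reads.

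The lung label was checked against marker hosts, whose back-splice reads do not measure their mRNA. Marker reads are given as counted, and the LPS library was the deeper. Lung epithelium was present with 4 of 12 hosts (60 Sham and 115 LPS reads, or 1574 and 2190 CPM). It was led by Rtkn2 with 53 and 112, and Sftpb and Ager had no junction. The Rtkn2 junction from 21951779 to 21959614 on chromosome 20 had 13 Sham and 91 LPS reads. Most other Rtkn2 junctions had fewer LPS than Sham reads. Without Rtkn2 the epithelial hosts had 7 Sham and 3 LPS reads, with the surfactant genes Sftpc and Sftpd at 5 and 2 Sham reads and the LPS fill-in. Abca3 went the other way, with 3 LPS reads at the Sham fill-in. Over all 4 epithelial hosts, Rtkn2 included, the median log2 ratio was -1.09. Endothelium was present with 5 of 8 (157 and 231 reads, or 4119 and 4400 CPM), led by Flt1 with 67 and 165, without Pecam1 or Cdh5. Without Flt1 the endothelial hosts had 90 Sham and 66 LPS reads, with Vwf at 58 and 56, Tek at 18 and 2 and Calcrl at 14 and 4. The Calcrl junction with the 4 LPS reads carries 15 host names, as do its junctions with 4 and 3 Sham reads. A Vwf junction with 3 LPS reads carries 13. These reads are therefore not assigned to Calcrl or Vwf alone. Ptprb went the other way, with 4 LPS reads at the Sham fill-in. Over all 5 endothelial hosts, Flt1 included, the median log2 ratio was -0.51. Hosts of lung epithelium and vessels were thus present in both libraries, with few reads for the surfactant genes.

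Cell types that make elastin were thinly covered. Smooth muscle had 2 of 9 hosts, led by Mylk (2 Sham and 7 LPS reads), for 2 Sham and 13 LPS reads in all, and Acta2, Myh11 and Tagln had no junction. Fibroblast had 2 of 6, Npnt with 11 and 57 reads and Pdgfra with 2 LPS reads, without Pdgfrb or Tcf21. Both lists had more LPS than Sham reads, most of them from the single Npnt junction. Among immune cells, neutrophil hosts had 0 Sham and 27 LPS reads over 2 of 7, of which Csf3r held 25, while S100a8, S100a9 and Mpo had no junction. Macrophage hosts had 2 and 7 reads over 2 of 7, led by Mrc1 with 2 and 4 and without Marco or Cd68. Of the Mrc1 LPS reads, 2 came from a junction with 5 host names. T and B cell hosts had 52 and 89 reads (1364 and 1695 CPM), all from Ikzf1, 1 of 8. What part these cell types have in the Eln values was not tested.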

How the data were processed

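The authors deposited 1 CPM value per junction and library for 4734 circRNA junctions, under a header that says TPM. The submitters' processing notes name CASAVA 1.8, BWA and rn6 without their roles, the study's methods name Cufflinks for relative expression, and the circRNA caller is not given in the sources used here. The column names gave the group of each library.

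Reads were obtained by dividing each value by the step of its column, and levels, sums and log2 ratios were computed from them. The steps were tested on simulated data. No count test was run. The members and lists were chosen with earlier results of these data known. Named in the text are every Eln junction (with values from 10 reads over both libraries, the others mostly by reads), every elastic fibre gene with a junction, the 5 hosts nearest to Eln in log2 ratio, the 5 with the most junctions, and the Eln junctions nearest to 2-fold on either side. Markers of other lists are named as examples. Rank by host used the 3835 rows with a single host name, and names of small RNA families (in 894 rows) were left out. Alternatives were a pseudocount of 1 read, the fill-in kept at 0.001 or taken as 1 read, 4-fold, at least 10 reads, other scales, single host names and, added after seeing the data, the fill-in at its limit. The gene table at hand is of another build, so no exon was assigned and no sequence is shown. Computation used scipy 1.17.1, pandas 2.3.3 and numpy 2.4.6 under Python 3.11.15, and plots were drawn with matplotlib 3.10.9.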

Additional observations from a re-analysis of the deposited data

How the results depend on the processing

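No paired analysis was possible because there is 1 library per group, and leaving out a replicate was impossible for the same reason. The count of 15 Eln junctions lower in LPS was the same with a pseudocount of 1 read, the fill-in kept at 0.001 or taken as 1 read, a 4-fold limit, the median of shared junctions as the scale and single host names. It was 19 with the median of junctions with at least 50 reads as the scale, and 6 of 11 with at least 10 reads over both libraries, where fewer junctions enter. With the fill-in at its limit, chosen after seeing the data, it was 7, and of all junctions 707 were lower and 399 higher. The count of 1 higher Eln junction became 0 at 4-fold and 0 on the scale of junctions with at least 50 reads. Over the table, the junctions higher in LPS went from 1688 to 883 with the fill-in as 1 read, 1027 at 4-fold and 459 with at least 10 reads, and the lower ones from 2051 to 468 with at least 10 reads.

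The summed Eln log2 ratio of -1.15 became -0.59 over junctions with reads in both libraries, -0.68 on the shared scale and -1.59 on the scale of junctions with at least 50 reads, and ran from -1.40 to -0.96 otherwise. The shared scale equals a comparison of read numbers without depth. With at least 10 reads, 2 elastic fibre hosts entered and 0 were lower in LPS. Ltbp4, the lower one in the main setting, had 4 Sham reads and did not meet this minimum. For the 7 junctions listed in both libraries, 26 of the 28 values that a setting altered stayed within their counting interval. The other 2, of the junction 25007056 to 25007716, were -0.23 and -1.14 under the 2 scales.

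Up to 3 Sham reads lie under the limit of the LPS fill-in and up to 6 LPS reads under that of the Sham fill-in, so for such junctions no difference from the fill-in was detectable. Nothing here measures the spread between rats.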
